A study of Homo sapiens with 8 samples.

Results

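The Hippo pathway transcription module was followed in MDA-MB-231 cells through 10 of the 19892 genes in the deposited table: YAP1, WWTR1, CCN1, CCN2, ANKRD1, AMOTL1, AMOTL2, AJUBA, LATS2 and AXL. They were named as genes of the YAP and TEAD pathway, and each was found under its NCBI gene number. All 10 had counts in every library and passed the filter on low counts in every test. MDA-MB-231 is a widely used cell line derived from a triple-negative breast cancer. Cells received an siRNA against ADAR1, the enzyme encoded by ADAR that edits adenosine to inosine within double-stranded RNA, or a control siRNA. From either kind of cell 2 Input libraries (RNA fragments) and 2 Ribo-seq libraries (ribosome footprints) were made, 8 in all. No other genotype or treatment is labelled, and the siRNA sequences and the hours between transfection and harvest were not given in the sources used here. Whether replicates came from separate cultures is not stated in the labels; p-values therefore cover only the spread seen among these libraries, and that spread may be technical.

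In Hippo signalling the kinases MST1 and MST2 activate LATS1 and LATS2, which phosphorylate the coactivators YAP (gene YAP1) and TAZ (gene WWTR1) and keep them out of the nucleus. Unphosphorylated YAP and TAZ enter the nucleus and bind TEAD transcription factors at promoters and enhancers of genes for matrix signalling, the cytoskeleton and growth. Several of the induced genes encode restraints on YAP itself, so the module holds negative feedback. In breast cancer lines of the basal type, MDA-MB-231 among them, YAP and TAZ activity is known to be high. The list therefore holds both the coactivators and genes described as their targets, together with regulators such as AJUBA. Protein level, phosphorylation and nuclear entry of YAP and TAZ were not measured here.

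TEAD factors recognise the short element CATTCC, read on the other strand as GGAATG. The 250 bases before each start listed in the RefSeq promoter table (GRCh38.p14) were searched on both strands for these 6 letters. The table held 13 windows for all of these genes but CCN1. Some of the listed starts lay inside a gene's span rather than at its outer start. The element was present for 6 genes: 3 times for CCN2, 2 times for ANKRD1 and 1 time each for YAP1, AMOTL2, AJUBA and AXL, with no matches that overlapped. AMOTL2, AJUBA and AXL held it only before a start inside the gene, and their window at the outer gene start lacked it. None was found in the windows of WWTR1, AMOTL1 and LATS2, and those of WWTR1 and AMOTL1 all lay inside the gene. Counted by window, 6 of the 13 held the element. Of all 35116 promoter windows of this length, 11.9% held the element and 0.0826% held it 3 or more times. Genes with more than 1 window had more chances of a match. The windows of CCN2 and ANKRD1 are shown because they carried the element more than once, with the element in capitals; a match describes the letters and is no evidence of binding. They lie on the minus strand at chr6:131951373-131951622 for CCN2 and chr10:90921088-90921337 for ANKRD1, 5′ to 3′ and ending at the base before the gene start.
CCN2: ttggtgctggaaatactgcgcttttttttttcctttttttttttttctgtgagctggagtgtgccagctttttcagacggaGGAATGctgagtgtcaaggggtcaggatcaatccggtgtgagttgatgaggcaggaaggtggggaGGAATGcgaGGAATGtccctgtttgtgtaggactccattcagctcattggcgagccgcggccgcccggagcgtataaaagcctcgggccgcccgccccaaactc
ANKRD1: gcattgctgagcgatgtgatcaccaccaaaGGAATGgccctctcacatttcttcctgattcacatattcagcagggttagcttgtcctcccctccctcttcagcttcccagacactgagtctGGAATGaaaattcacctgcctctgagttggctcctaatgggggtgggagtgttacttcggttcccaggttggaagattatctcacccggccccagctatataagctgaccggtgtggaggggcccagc
In CCN2 the elements began 169, 104 and 95 bases upstream of the start, and in ANKRD1 220 and 128 bases upstream. Their RNA changes after ADAR1 siRNA were -0.16 (CCN2) and 0.15 (ANKRD1) on the log2 scale, and neither passed the test described further on.

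Input libraries held 16364576 and 17153716 estimated counts after ADAR1 siRNA and 15732757 and 16819821 after control siRNA. Ribo-seq libraries held 14646868 and 14875465 after ADAR1 siRNA and 11975081 and 10492223 after control siRNA, so both controls were the shallower ones there. ADAR stood at 14.8 and 30.6 TPM (a level per transcript length and library size) in ADAR1 siRNA Input against 106 and 110.2 TPM in control Input. In Ribo-seq it stood at 1.55 and 8.41 TPM after ADAR1 siRNA against 19.1 and 20.3 TPM after control siRNA. The ADAR1 siRNA libraries thus lay below the controls in both assays, and replicate 1 lay further below than replicate 2. ADAR RNA changed by -2.26 on the log2 scale (SE 0.32) and yet missed the threshold used for all genes (edgeR adjusted p = 0.0527). Its footprint change of -2.04 (SE 0.47) passed (edgeR adjusted p = 0.0485). The ADAR1 siRNA pair also differed more from each other than the control pair did, with an SD of log2 differences across genes of 0.277 against 0.120 in Input and 0.383 against 0.271 in Ribo-seq. Markers of the line (VIM, CD44, MSN, TGFBI, ZEB1, SNAI2 and FN1) were at 1 TPM or more in all 4 groups. Of the 9 markers listed for luminal or receptor-positive cells, ESR1, PGR, CDH1 and FOXA1 had group means of 0 to 0.215 TPM. The other 5 were at 1 TPM or more in every group. Apart from KRT8 and KRT18, their Input means after ADAR1 siRNA and control siRNA were 31.0 and 33.3 TPM (ERBB2), 17.5 and 13.4 TPM (EPCAM) and 7.15 and 7.41 TPM (GATA3). Fibroblast and endothelial markers summed to 1.53 to 8.78 TPM per library, and the immune sum of 96.05 to 234.4 TPM was nearly all CD68 (group means 97.0 to 232 TPM). The luminal sum, mostly KRT8 and KRT18, was 1234 to 1348 TPM in ADAR1 siRNA Input against 1383 to 1386 TPM in control Input, and 419 to 644 TPM against 777 to 940.1 TPM in Ribo-seq. KRT8 footprints fell by 0.96 on the log2 scale (SE 0.21, edgeR adjusted p = 0.0443) and PDGFRB footprints rose by 1.22 (SE 0.28, edgeR adjusted p = 0.0485) at group means of 1.54 TPM after ADAR1 siRNA and 0.706 TPM after control siRNA. No other marker on these lists passed in any comparison by edgeR. DESeq2 called KRT8, KRT18 and VIM lower in footprints, KRT8 and VIM lower and ERBB2 higher in efficiency, and CD68 lower in RNA. Mean VIM footprints were 1152 TPM after ADAR1 siRNA against 2079 TPM after control siRNA (edgeR adjusted p = 0.0583), and mean TGFBI RNA was 185 TPM against 70.45 TPM (edgeR adjusted p = 0.189). These markers were named after their values were seen, and the part of these shifts in the results was not tested.

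Among the 10 genes 1 change passed the test in any assay: ANKRD1 footprints fell after ADAR1 siRNA, and its RNA change did not pass. ANKRD1 had 242.9 and 314 TPM in ADAR1 siRNA Ribo-seq against 427 and 521 TPM in control Ribo-seq. Its mean TPM was 1.70-fold lower, and the edgeR fit on scaled counts put it 1.60-fold lower. CCN1 and AXL had higher footprint levels in both ADAR1 siRNA libraries and AMOTL2 lower ones, without passing the test. Fitted RNA changes of the 10 genes stayed within 1.22-fold in either direction. In cells measured in bulk, a shift in the share of cells that carry a transcript cannot be told apart from a shift per cell.

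Changes are log2 ratios of ADAR1 siRNA over control siRNA, fitted by edgeR's quasi-likelihood test on TMM-scaled counts, with p-values adjusted over all genes tested by the Benjamini-Hochberg method and a threshold of 0.05. In RNA 0 of the 10 genes passed, where 0.253% of 12644 tested genes did (10 higher and 22 lower; 5 and 6 with upper-quartile scaling). DESeq2 also called 0 of the 10 in RNA. In footprints 1 of 10 passed, ANKRD1, which was lower, where 3.54% of 12000 genes passed and 1.67% passed as lower (225 higher and 200 lower; 311 and 176 with upper-quartile scaling, 391 and 587 with DESeq2). In translational efficiency, the footprint change beyond the RNA change, 0 of 10 passed by edgeR and 1 by DESeq2, where 0.0463% of 12953 genes passed by edgeR (2 higher and 4 lower; 488 and 494 with DESeq2). At an unadjusted p under 0.05 the counts were 2 of 10 in RNA (ANKRD1 and AJUBA, both higher) beside 25.3% of all genes, 11.8% higher and 13.5% lower. They were 4 of 10 in footprints (CCN1 and AXL higher, ANKRD1 and AMOTL2 lower) beside 24.0% of all genes, 12.7% higher and 11.3% lower. The same 4 genes had it in translational efficiency, each in its footprint direction, beside 22.7% of all genes, 13.2% higher and 9.48% lower. The median log2 change of the 10 genes was 0.06 in RNA, 0.06 in footprints and 0.18 in translational efficiency, against 0.00, 0.05 and 0.09 over all genes tested. The values of the ADAR1 siRNA pair lay wholly above or below those of the control pair for 8 of 10 genes in RNA (57.1% of all genes), 7 of 10 in footprints (54.3%) and 4 of 10 in translational efficiency (52.9%).

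**Figure D1:**
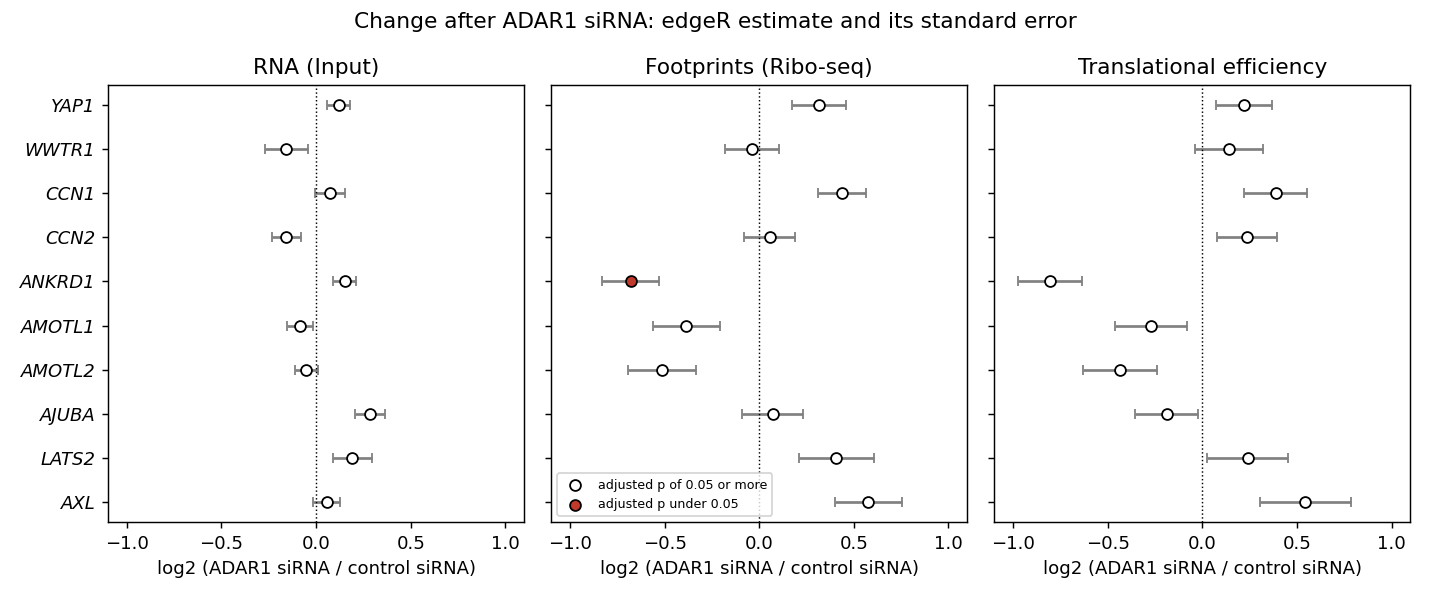
Log2 change (ADAR1 siRNA over control siRNA, horizontal axis) of each of the 10 genes in RNA, footprints and translational efficiency; points are edgeR estimates, bars their standard errors, and a filled point has an adjusted p under 0.05. The only filled point is ANKRD1 in footprints at -0.68, and RNA points stay between -0.16 and 0.29.

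The coactivators came first. YAP1 (NCBI gene 10413; GRCh38.p14 chromosome 11, 102110447 to 102233424) encodes YAP. Its RNA stood at 192 and 178 TPM after ADAR1 siRNA against 164 and 166 TPM after control siRNA. Its footprints stood at 70.0 and 87.9 TPM after ADAR1 siRNA against 65.3 and 61.3 TPM after control siRNA. Both ADAR1 siRNA libraries lay above both controls in either assay, by amounts that did not pass (log2 0.12 ± 0.06 in RNA and 0.32 ± 0.14 in footprints, ± SE; edgeR adjusted p = 0.270 and 0.214). WWTR1 (NCBI gene 25937; chromosome 3, 149517235 to 149724788) encodes TAZ, the close relative of YAP. Its RNA stood at 89.3 and 66.6 TPM after ADAR1 siRNA and at 87.4 and 83.9 TPM after control siRNA, so the groups overlapped. WWTR1 footprints were 45.3 and 50.3 TPM after ADAR1 siRNA and 52.6 and 52.3 TPM after control siRNA. Its log2 changes of -0.16 ± 0.11 in RNA and -0.04 ± 0.14 in footprints did not pass (edgeR adjusted p = 0.429 and 0.894), and the footprint value took the opposite sign, 0.0098, with upper-quartile scaling.

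YAP1 and WWTR1 counts are linked in part of the data. In ADAR1 siRNA Ribo-seq the deposited counts were 1870.61 and 2160.64 for YAP1 and 1303.39 and 1351.36 for WWTR1, whose fractions add up to whole totals of 3174 and 3512. All other libraries gave whole counts for both genes, and the other 8 genes had whole counts throughout. Some footprints in those 2 libraries may therefore have been shared out between the paralogs, and the split between them is uncertain. With both genes' counts summed, an alternative chosen after seeing the data, the log2 change was 0.03 ± 0.07 in RNA and 0.16 ± 0.14 in footprints (edgeR adjusted p = 0.807 and 0.506).

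CCN1 and CCN2 encode secreted matricellular proteins and are commonly used as readouts of YAP and TAZ. CCN1 (NCBI gene 3491; chromosome 1, 85580761 to 85583950) was the most abundant of the 10 transcripts per length in control Input, at 860.0 and 927 TPM after ADAR1 siRNA against 827 and 854 TPM after control siRNA. CCN1 footprints stood at 965 and 1079 TPM after ADAR1 siRNA against 828 and 782 TPM after control siRNA. Both ADAR1 siRNA libraries were the higher ones in either assay. The footprint change was log2 0.44 ± 0.13 and missed the threshold (edgeR adjusted p = 0.0792), and the RNA change was 0.07 ± 0.08 (edgeR adjusted p = 0.592). CCN2 (NCBI gene 1490; chromosome 6, 131948176 to 131951372) had lower RNA in both ADAR1 siRNA libraries, 357 and 380.2 TPM, than in the controls, 402 and 412 TPM. Its footprints overlapped between groups at 304 and 364 TPM after ADAR1 siRNA and 345 and 340.0 TPM after control siRNA. Neither CCN2 change passed (log2 -0.16 ± 0.08 in RNA and 0.05 ± 0.13 in footprints; edgeR adjusted p = 0.257 and 0.838).

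**Figure D2:**
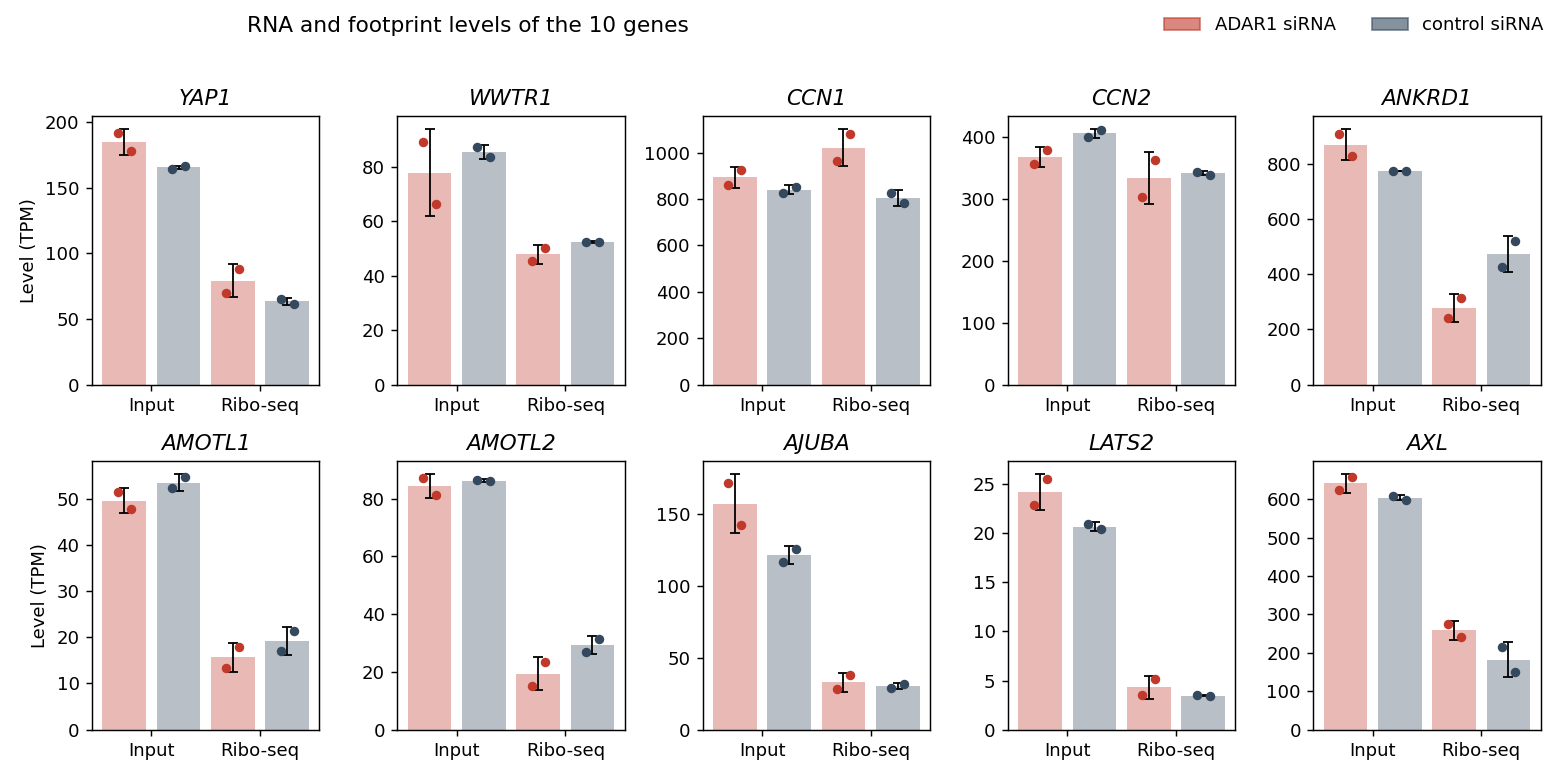
Level in TPM (vertical axis, from 0) of each of the 10 genes in Input and Ribo-seq libraries; bars are means of 2 libraries, error bars their SD, points the libraries, with ADAR1 siRNA left of control siRNA. ANKRD1 bars are near equal in Input and lie apart in Ribo-seq, at means of 278 TPM after ADAR1 siRNA and 474 TPM after control siRNA.

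ANKRD1 (NCBI gene 27063; chromosome 10, 90912096 to 90921087) encodes an ankyrin repeat protein of muscle sarcomeres and nuclei that is also a widely used YAP target. Its RNA stood at 911 and 829.6 TPM in ADAR1 siRNA Input against 774 and 775 TPM in control Input, so both ADAR1 siRNA libraries were above the controls (log2 0.15 ± 0.06, edgeR adjusted p = 0.187). Footprints went the other way: the ADAR1 siRNA libraries held 51.3% and 66.2% of the control mean. The fall was -0.68 ± 0.15 on the log2 scale (edgeR adjusted p = 0.0451). The call held without either ADAR1 siRNA library (-0.58 without replicate 1 and -0.83 without replicate 2) and was lost without control Ribo-seq replicate 1 (-0.80, edgeR adjusted p = 0.0954) or replicate 2 (-0.55, edgeR adjusted p = 0.556). With 1 control left, the spread came from the ADAR1 siRNA pair, which was the wider pair across all genes (SD of log2 differences 0.383 against 0.271). For ANKRD1 itself the footprint SD was 50.1 TPM after ADAR1 siRNA and 66.7 TPM after control siRNA.

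Translational efficiency of ANKRD1, which the authors' deposited table gives as the ratio of Ribo-seq TPM to Input TPM with the same siRNA and replicate number, was 0.267 and 0.378 after ADAR1 siRNA against 0.552 and 0.672 after control siRNA. The groups did not overlap, and the fitted difference between footprint and RNA changes was -0.80 ± 0.17 on the log2 scale. It ranked 150 of 12953 genes by p but missed the threshold with an edgeR adjusted p of 0.0552. DESeq2 called it (-0.82, adjusted p = 0.000636); over the 7 other settings in all, adjusted p-values ran from 0.000636 to 0.343 and the log2 value from -0.94 to -0.79.

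**Figure D3:**
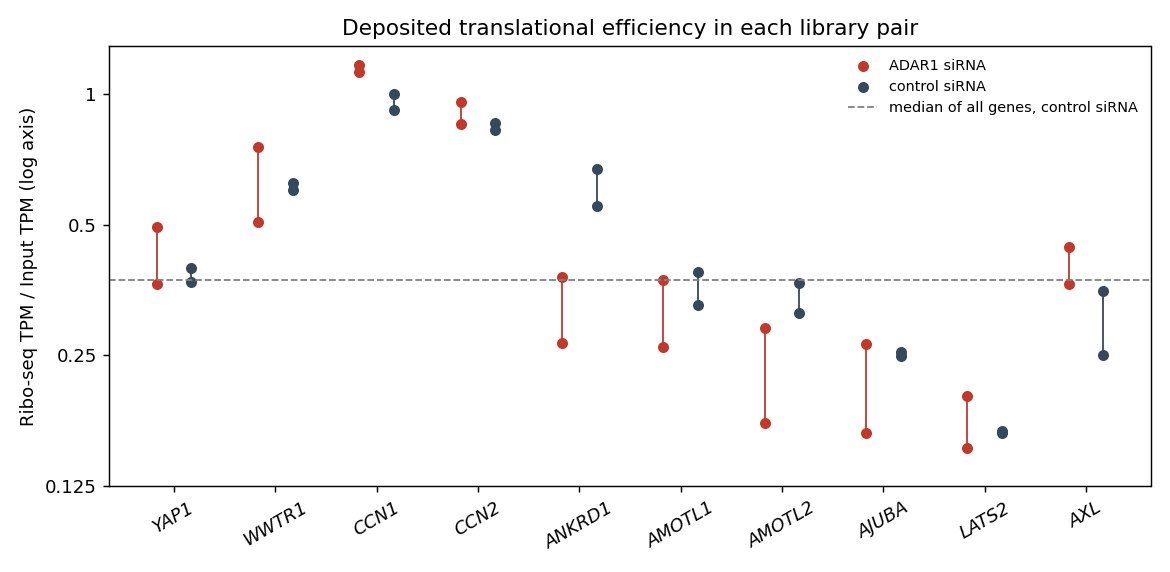
Deposited translational efficiency (Ribo-seq TPM over Input TPM, log axis) of each of the 10 genes, 1 point per library pair, ADAR1 siRNA left of control siRNA; the dashed line is the median of 11469 genes in control siRNA libraries, 0.373. ANKRD1 and AMOTL2 pairs after ADAR1 siRNA lie below both control pairs, and CCN1 and AXL pairs lie above.

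The next genes act back on the pathway. AMOTL1 and AMOTL2 encode angiomotin family scaffolds that bind YAP and hold it at junctions and actin. AMOTL2 (NCBI gene 51421; chromosome 3, 134355345 to 134375417) had near equal RNA, 87.2 and 81.3 TPM after ADAR1 siRNA and 86.5 and 85.9 TPM after control siRNA. AMOTL2 footprints were 15.3 and 23.5 TPM after ADAR1 siRNA against 27.0 and 31.5 TPM after control siRNA, both below the controls. The footprint change was log2 -0.51 ± 0.18 and the efficiency change -0.44 ± 0.19, neither past the threshold (edgeR adjusted p = 0.121 and 0.215). Without ADAR1 siRNA Ribo-seq replicate 2 they were -0.80 and -0.66, and both passed (edgeR adjusted p = 1.01e-05 and 0.0129). Without replicate 1 the footprint change was -0.30 and did not pass (edgeR adjusted p = 0.135). AMOTL1 (NCBI gene 154810; chromosome 11, 94706460 to 94876748) had 51.4 and 47.7 TPM in ADAR1 siRNA Input against 52.2 and 54.8 TPM in control Input. Its footprints overlapped, at 13.4 and 17.8 TPM after ADAR1 siRNA and 17.1 and 21.3 TPM after control siRNA (log2 -0.38 ± 0.18, edgeR adjusted p = 0.221). Both angiomotin relatives thus had footprint estimates below 0 with RNA near the controls, in the same direction as ANKRD1, and theirs did not pass.

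LATS2 (NCBI gene 26524; chromosome 13, 20973036 to 21061586), the kinase that inhibits YAP and is itself described as a YAP target, had the lowest level of the 10. Its RNA was 22.9 and 25.5 TPM after ADAR1 siRNA against 21.0 and 20.4 TPM after control siRNA, and its footprints were 3.51 and 5.14 TPM against 3.48 and 3.41 TPM. These footprint levels rest on 262 and 361 counts after ADAR1 siRNA and 193 and 168 counts after control siRNA. Both ADAR1 siRNA libraries were higher in each assay, without passing (log2 0.19 ± 0.10 and 0.41 ± 0.20; edgeR adjusted p = 0.292 and 0.241). AJUBA (NCBI gene 84962; chromosome 14, 22971177 to 22982551), a LIM protein that binds LATS kinases and restrains them, had the RNA estimate farthest from 0 among the 10 genes. Its RNA stood at 172 and 143 TPM after ADAR1 siRNA against 117 and 126 TPM after control siRNA (log2 0.29 ± 0.08, edgeR adjusted p = 0.105). AJUBA footprints overlapped, at 28.5 and 37.9 TPM after ADAR1 siRNA and 29.2 and 32.1 TPM after control siRNA (log2 0.07 ± 0.16, edgeR adjusted p = 0.825).

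AXL (NCBI gene 558; chromosome 19, 41219223 to 41261766) encodes a receptor tyrosine kinase of the TAM family, described as a YAP target in cancer cells. Its RNA was 624 and 659 TPM after ADAR1 siRNA against 609 and 599 TPM after control siRNA (log2 0.06 ± 0.07, edgeR adjusted p = 0.673). AXL footprints were 276 and 240.3 TPM after ADAR1 siRNA against 215 and 150.4 TPM after control siRNA, both above the controls, which differed between themselves. The footprint change was log2 0.58 ± 0.18 and missed the threshold (edgeR adjusted p = 0.0887); DESeq2 called it (0.54, adjusted p = 0.0401), and over the 6 other settings adjusted p-values ran from 0.000553 to 0.0816. It was 0.36 without control Ribo-seq replicate 2 and 0.83 without replicate 1, where it did not pass (edgeR adjusted p = 0.795 and 0.104). Without ADAR1 siRNA Ribo-seq replicate 1 or 2 it was 0.44 and 0.65 and passed (edgeR adjusted p = 0.0123 and 1.11e-05).

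GAS6, the ligand of AXL, was among the relatives of the 10 genes. GAS6 footprints rose, to 23.8 and 41.5 TPM after ADAR1 siRNA against 18.3 and 16.1 TPM after control siRNA (log2 1.00 ± 0.21, edgeR adjusted p = 0.0429). Its RNA overlapped between groups, at 100.4 and 133 TPM after ADAR1 siRNA and 131 and 139.5 TPM after control siRNA, and its efficiency difference of 1.24 ± 0.29 missed the threshold (edgeR adjusted p = 0.0598). The other TAM receptors, named after their values were seen, stood at 0.76 ± 0.26 (TYRO3) and 0.71 ± 0.21 (MERTK) in footprints on the log2 scale, and neither passed (edgeR adjusted p = 0.115 and 0.0819). PROS1, another ligand of these receptors, stood at 0.45 ± 0.23 and did not pass (edgeR adjusted p = 0.260). GAS6 had fractional counts in 2 Ribo-seq libraries, so some of its reads may be shared with another gene.

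**Figure D4:**
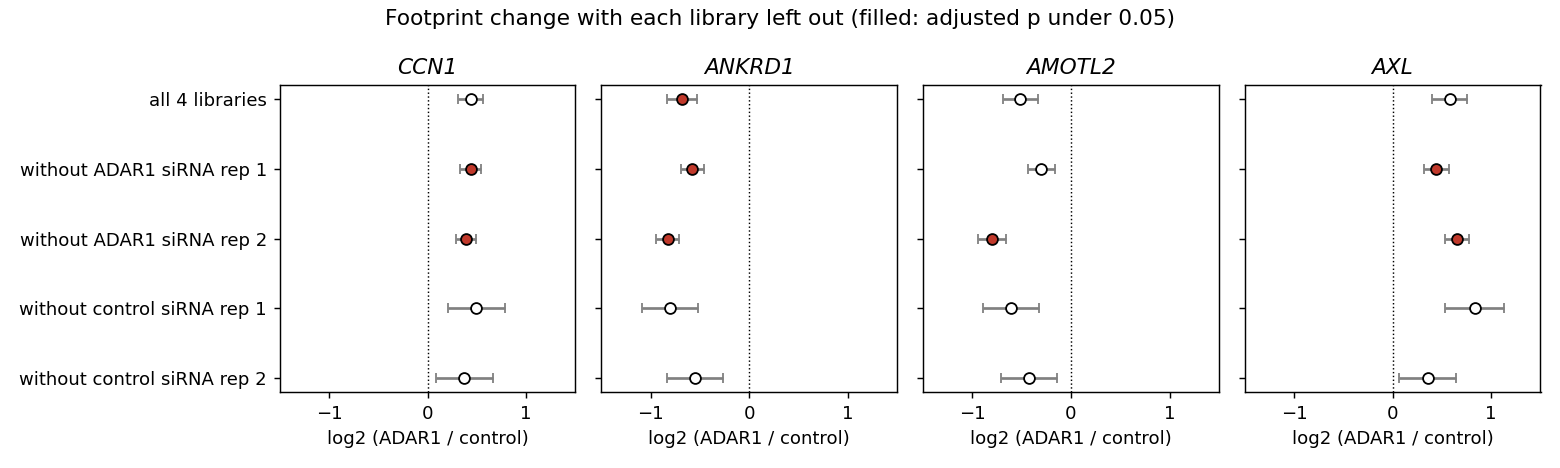
Footprint change (log2 ADAR1 siRNA over control siRNA, horizontal axis) of CCN1, ANKRD1, AMOTL2 and AXL with all 4 Ribo-seq libraries and with each left out in turn; points are edgeR estimates, bars standard errors, and filled points have an adjusted p under 0.05. All 4 genes keep their direction in each row, ANKRD1 is filled in 3 of 5 rows, and no point is filled without a control library.

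More of the 10 genes were called when an ADAR1 siRNA library was left out, and 0 when a control library was, in RNA and in footprints. The spread then came from the pair that stayed whole, and across all genes the control pair was the closer one. Among the 10 genes, ANKRD1 and AXL footprints alone went the other way by SD in TPM. Theirs were 50.1 and 25.6 after ADAR1 siRNA against 66.7 and 45.4 after control siRNA. In RNA, leaving out ADAR1 siRNA Input replicate 1 gave 8 calls, where 31.9% of all genes tested were called. Leaving out replicate 2 gave 4 calls of 10, near the 42.1% of all genes called there. YAP1 (0.11 and 0.13 on the log2 scale), ANKRD1 (0.12 and 0.18) and AJUBA (0.22 and 0.35) were higher both times. CCN1, LATS2 and AXL, higher, and WWTR1 and AMOTL1, lower, were called without replicate 1 alone, and CCN2, lower at -0.25, without replicate 2 alone. In footprints, 5 were called without either ADAR1 siRNA Ribo-seq library, where 15.3% (replicate 1 left out) and 28.1% (replicate 2 left out) of all genes were. CCN1 (0.44 and 0.39), AXL and ANKRD1 were among them both times. YAP1 (0.39) and LATS2 (0.59) were called without replicate 1 alone, and AMOTL1 (-0.59) and AMOTL2 without replicate 2 alone. ANKRD1 efficiency passed without ADAR1 siRNA Ribo-seq replicate 1 (-0.72, edgeR adjusted p = 0.0401) or replicate 2 (-0.89, edgeR adjusted p = 0.00789), where 3.81% and 16.9% of all genes passed. None of the 10 genes passed in efficiency with any of the other 6 libraries left out.

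The 10 genes differed widely in the ratio of Ribo-seq TPM to Input TPM, which compares levels scaled to length and not numbers of footprints. In control siRNA libraries the deposited efficiency ran from 0.167 ± 0.000955 for LATS2 to 0.958 ± 0.0606 for CCN1 (mean ± SD, n = 2), against a median of 0.373 over 11469 genes with at least 1 TPM in every Input library. The secreted proteins CCN1 and CCN2 stood at the 81.7th and 78.4th percentiles of these genes. WWTR1 and ANKRD1 followed, both at the 68.8th percentile. YAP1, AMOTL1, AMOTL2 and AXL lay near the middle, between the 42.1st and 51.1st percentiles, with AJUBA at the 35.1st and LATS2 at the 21.1st. Ranked by efficiency, neighbours from YAP1 down to AJUBA overlapped between their control values, as did WWTR1 and ANKRD1. CCN1, CCN2 and LATS2 were separate from their neighbours in that order.

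In RNA the order in control Input was CCN1, ANKRD1, AXL, CCN2, YAP1, AJUBA, AMOTL2, WWTR1, AMOTL1 and LATS2, and of these neighbours AMOTL2 and WWTR1 alone overlapped. The same order by mean level held after ADAR1 siRNA, where CCN1 and ANKRD1 also overlapped. In footprints ANKRD1 held the second place in control Ribo-seq, above CCN2, without overlap. After ADAR1 siRNA its mean lay between those of CCN2 and AXL, and it overlapped with both.

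Upstream genes of the pathway were covered by 35 Hippo kinases, adaptors and regulators, of which 33 could be tested in each assay. In RNA 0 passed by edgeR, with 12 at an unadjusted p under 0.05 (5 higher, 7 lower), and 3 by DESeq2 (FAT4 higher, MINK1 and the adaptor gene WWC3 lower, the last named after its value was seen). The smallest p-values there were those of the giant cadherin FAT4 (log2 0.48 ± 0.07, edgeR adjusted p = 0.0527) and the kinase MINK1 (-0.35 ± 0.06, edgeR adjusted p = 0.0672). In footprints 2 rose and 0 fell: FAT4 (1.15 ± 0.16, edgeR adjusted p = 0.0222) and FAT1 (0.84 ± 0.17, edgeR adjusted p = 0.0422), giant cadherins related to the fly Hippo regulator Fat. FAT4 had 2.35 and 2.99 TPM in ADAR1 siRNA Ribo-seq against 1.27 and 1.29 TPM in control Ribo-seq. FAT1 had 24.5 and 38.2 TPM after ADAR1 siRNA against 18.6 and 18.4 TPM after control siRNA. In translational efficiency 0 passed by edgeR (10 higher and 2 lower at an unadjusted p under 0.05) and 3 by DESeq2 (FAT4, WWC3 and CSNK1E, all higher), with the casein kinase gene CSNK1E at 0.86 ± 0.16 and FAT4 at 0.69 ± 0.15 (edgeR adjusted p = 0.0534 and 0.0567). Median log2 changes of the list were 0.08 in RNA, 0.23 in footprints and 0.25 in translational efficiency. Counts in this list and the lists that follow stand beside these shares of all genes tested. In RNA, footprints and efficiency, edgeR called 0.253%, 3.54% and 0.0463%, and 25.3%, 24.0% and 22.7% had an unadjusted p under 0.05. DESeq2 called 449 of 12644, 978 of 12000 and 982 of 12953 genes.

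TEAD factors and their VGLL cofactors made a list of 8, of which 6 could be tested in RNA and efficiency and 5 in footprints, and 0 passed in any comparison by edgeR or DESeq2. At an unadjusted p under 0.05 there were 3 in RNA (VGLL3 higher, TEAD4 and VGLL4 lower, the last named after its value was seen) and 0 in the other comparisons. TEAD4 RNA was 39.7 and 36.2 TPM after ADAR1 siRNA against 47.0 and 47.3 TPM after control siRNA (log2 -0.37 ± 0.09, edgeR adjusted p = 0.0891). TEAD4 and TEAD3 footprints stood at log2 -0.39 ± 0.18 and -0.35 ± 0.19 (edgeR adjusted p = 0.211 and 0.279); both had fractional counts in all 4 Ribo-seq libraries, so reads may be shared between paralogs and these values are uncertain. VGLL3, a cofactor that binds TEADs, had an RNA change of 0.51 ± 0.14 (edgeR adjusted p = 0.106) at 2.35 to 3.70 TPM over the Input libraries. Its efficiency change of 0.92 ± 0.65 rested on 1 to 11 footprint counts per library. TEAD2 stood at 0.39 ± 0.29 in efficiency (edgeR adjusted p = 0.454).

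Relatives of the 10 genes (CCN, angiomotin, LIM, ankyrin and TAM families) numbered 16, with 10 tested in RNA and 11 in the other comparisons. GAS6 in footprints was the 1 change that passed by edgeR, and DESeq2 called GAS6 and ZYX there, both higher; 0 passed in RNA or efficiency by edgeR, where 1 and 5 had an unadjusted p under 0.05 and DESeq2 called 1 (LPP, higher) and 3 (ZYX and GAS6 higher, LPP lower). ZYX, the focal adhesion LIM protein zyxin, had log2 0.49 ± 0.14 in footprints and 0.67 ± 0.18 in efficiency (edgeR adjusted p = 0.0716 and 0.0702). LPP, another LIM protein of adhesions, had 0.38 ± 0.06 in RNA (edgeR adjusted p = 0.0672), with fractional counts in all 4 Input libraries.

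Other genes described as YAP and TEAD targets numbered 20, all tested. In RNA 1 rose and 0 fell, in footprints 2 rose and 0 fell, and in efficiency 0 passed by edgeR (4 at an unadjusted p under 0.05). DESeq2 called 5 in RNA (GADD45A, IGFBP3, RBMS3, TGFB2 and EDN1), 4 in footprints (IGFBP3, FJX1, TGFB2 and THBS1) and FJX1 in efficiency, all higher; TGFB2, EDN1 and THBS1 are named after their values were seen. GADD45A, a growth arrest gene induced by many stresses, had 111 and 84.7 TPM in ADAR1 siRNA Input against 43.4 and 45.5 TPM in control Input (log2 1.12 ± 0.13, edgeR adjusted p = 0.0488). IGFBP3, a secreted binding protein of insulin-like growth factors, had footprints of 34.95 and 56.1 TPM after ADAR1 siRNA against 24.2 and 27.6 TPM after control siRNA (0.90 ± 0.20, edgeR adjusted p = 0.0443). FJX1, the human relative of the fly Hippo pathway kinase four-jointed, had footprints of 8.29 and 11.7 TPM against 6.13 and 4.42 TPM (0.99 ± 0.23, edgeR adjusted p = 0.0460). RBMS3, which encodes an RNA-binding protein, stood at 0.65 ± 0.11 in RNA (edgeR adjusted p = 0.0672). FJX1 and GADD45A had efficiency changes of 1.20 ± 0.27 and -0.56 ± 0.18 (edgeR adjusted p = 0.0578 and 0.105). List medians were 0.33 in RNA, 0.43 in footprints and 0.20 in efficiency. Summed over the list, ADAR1 siRNA libraries ranged from 3537 to 5142 TPM in Input and from 2450 to 4048 TPM in Ribo-seq, against 3438 to 3478 and 2215 to 2296 TPM in the controls.

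Actin and SRF linked genes numbered 12, all tested; 0 passed in RNA and efficiency by edgeR (4 and 1 at an unadjusted p under 0.05; by DESeq2 CAV1 and TPM1 in RNA, the second named after its value was seen, and SRF in efficiency, all higher). In footprints 2 rose and 0 fell by edgeR, whereas DESeq2 called 3 higher (SRF, CAV1 and TPM1) and 2 lower (FLNA and the caveolae gene CAVIN1, named after its value was seen). SRF, the transcription factor that reads actin dynamics, had footprints of 8.68 and 8.64 TPM after ADAR1 siRNA against 4.596 and 5.663 TPM after control siRNA (log2 0.86 ± 0.20, edgeR adjusted p = 0.0460). SRF RNA was 62.0 and 64.0 TPM after ADAR1 siRNA against 78.2 and 73.4 TPM after control siRNA, and its efficiency change of 1.20 ± 0.18 missed the threshold (edgeR adjusted p = 0.0534). CAV1, the caveolae coat protein caveolin, had footprints of 1126 and 1153 TPM after ADAR1 siRNA against 788 and 738 TPM after control siRNA (0.67 ± 0.14, edgeR adjusted p = 0.0422). CAV1 RNA, 890 and 946 TPM against 627 and 633 TPM, had a change of 0.52 ± 0.07 (edgeR adjusted p = 0.0527). FLNA, the actin crosslinker filamin A, stood at -0.27 ± 0.06 in RNA and -0.45 ± 0.21 in efficiency (edgeR adjusted p = 0.0852 and 0.246). FLNA footprints were 26.9 and 38.4 TPM after ADAR1 siRNA against 49.1 and 66.9 TPM after control siRNA (-0.74 ± 0.18, edgeR adjusted p = 0.0514). They had fractional counts in all 4 Ribo-seq libraries, so some of these reads may be shared with another gene. List medians were -0.03, -0.12 and -0.06 in RNA, footprints and efficiency.

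Across the 5 pathway lists, 7 of the 81 tested genes rose in footprints, where 1.88% of all genes rose, and GADD45A rose in RNA, where 0.0791% did. The lists were chosen with earlier results of these data known, so these shares are no test of the lists. Of the 7 footprint calls, 0 were lost without either ADAR1 siRNA library, 4 without control Ribo-seq replicate 1 (CAV1, FAT1, IGFBP3 and SRF) and all 7 without replicate 2, where adjusted p-values ranged up to 0.519. GADD45A lost its call without either control Input library (edgeR adjusted p = 0.261 and 0.2504).

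Genes whose levels most resembled those of CCN1 and CCN2 over the 8 libraries were found by Pearson correlation of log2 CPM (counts scaled to library size) after each assay's mean was subtracted, among 9736 genes. They were SPIN1 (r = 0.996), JOSD2 (0.995) and HDGFL3 (0.991) for CCN1 and GNA11 (0.974), IGSF3 (0.968) and ZBTB7A (0.963) for CCN2. The 8 points share libraries and scaling, so these values describe likeness only.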

How the data were processed

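RNA fragments (Input) and ribosome footprints (Ribo-seq) were sequenced from MDA-MB-231 cells. Tools named in the submitters' processing notes are cutadapt, Bowtie2, STAR and featureCounts, with the build GRCh38 (hg38). Versions, settings and the strandedness of counting were not given in the sources used here. Per the labels' protocols, RNAs of different gel-selected sizes gave the Ribo-seq and Input libraries, ligated to adapters and amplified by PCR; no molecular identifiers are mentioned. The authors deposited an estimated count per gene without normalization, of which 87.5% to 90.3% per library were whole numbers. Besides the genes already said to have fractional counts, ADAR, CSNK1E, MINK1, GNA11, HDGFL3, IGSF3, SPIN1 and ZBTB7A had them in some libraries. Their reads may be shared too. The authors also deposited TPM, scaled to the same sum in each library, and a translational efficiency ratio; 99.99% to 100% of these ratios per library pair equalled Ribo-seq TPM over Input TPM of the same number within a relative tolerance of 0.0001. No column was left out. Gene numbers were matched to symbols for 19669 of 19892 genes, and coordinates come from the RefSeq table for GRCh38.p14.

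Libraries were grouped by title. No replicate pair agreed within sampling noise (mean chi-square per gene 16.2 and 31.2 for ADAR1 siRNA Input and Ribo-seq, 1.89 and 6.81 for the controls). Estimated counts were rounded and tested with edgeR 4.0.16 in R 4.3.3 (TMM, filterByExpr, two-sided quasi-likelihood tests, Benjamini-Hochberg adjustment, false discovery rate 0.05) over the 4 libraries of an assay, or over all 8 as the assay by siRNA interaction for translational efficiency. Scripts were tested on simulated data. There, genes changed 1.5-fold were called in 70% of cases for RNA, 10% for footprints and 4% for efficiency. Of the calls made there, 12.9%, 6.86% and 5.8% were false. The simulation gave both siRNA groups the same spread per gene, whereas the real ADAR1 siRNA pairs differed more than the control pairs. These shares may therefore not carry over to the real libraries. A change that did not pass is not shown to be absent. The SE of a log2 change is its size over the root of its F. With 2 libraries against 2, the smallest two-sided p of an exact permutation test is 0.333. The 10 genes and all lists were chosen with earlier results of these data known. Named besides the 10 genes and ADAR are list members that passed and the 2 of smallest p per list and comparison, and the 3 genes most like CCN1 and CCN2 (prior count 2, mean count of at least 50 per assay). Marker lists for the line, luminal, fibroblast, endothelial and immune cells were read as levels and counts of calls. Alternatives were upper-quartile scaling, DESeq2 1.42.0, no filter, a mean count of at least 50, a replicate block, 1 fit over all 8 libraries, limma 3.58.1 on the log2 TPM ratio (pseudocount 0.5 or 0.1), each library left out, and, chosen after seeing the data, YAP1 and WWTR1 summed.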

Additional observations from a re-analysis of the deposited data

Results flagged for a closer look

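ANKRD1 values after ADAR1 siRNA lay on opposite sides of the controls in the 2 assays. Its RNA was higher in both ADAR1 siRNA Input libraries than in both controls, and its footprints were lower in both ADAR1 siRNA Ribo-seq libraries than in both controls. The difference itself was tested as the interaction of assay and siRNA, at -0.80 ± 0.17 on the log2 scale, and did not pass (edgeR adjusted p = 0.0552). It ran from -0.90 to -0.70 with 1 of the 8 libraries left out.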

How the results depend on the processing

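Calls depended on the setting far more than directions did. Genes called in RNA numbered 32 in the main fit against 11 with upper-quartile scaling, 449 with DESeq2, 95 with no filter, 73 with a mean count of at least 50 and 14 in 1 fit over all 8 libraries, and 0 to 5420 with 1 library left out. For footprints they numbered 425 against 978 with DESeq2, 1693 with no filter and 1936 in 1 fit over all 8 libraries, and 77 to 3415 with 1 library left out. For translational efficiency they numbered 6 against 982 with DESeq2, 854 with no filter, 2 with a mean count of at least 50, and 3 and 0 by limma with pseudocounts of 0.5 and 0.1, and 0 to 2252 with 1 library left out. Where 0 genes passed, 958 and 1055 (RNA without control Input replicate 2 or 1), 2207 and 2683 (efficiency without ADAR1 siRNA Input replicate 1 or 2) and 1865 (limma) had an unadjusted p under 0.05.

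Of the 10 genes, 0 to 8 were called in RNA with 1 library left out (8 when ADAR1 siRNA Input replicate 1 was absent and 4 when replicate 2 was, beside 31.9% and 42.1% of all genes). In footprints 1 was called in the main fit. DESeq2 called 2 of the 10, beside 978 of 12000 genes, and the fit with no filter called 4, beside 1693 of 15536. The 1 fit over all 8 libraries also called 4, beside 1936 of 12953. In both of these fits the 4 were CCN1, AXL, ANKRD1 and AMOTL2. In efficiency 0 were called, against 1 with DESeq2 (beside 982 of 12953 genes) and 1 with no filter (beside 854 of 16931), ANKRD1 both times.

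Some values changed sign. WWTR1 footprints were 0.0098 with upper-quartile scaling, and summed with YAP1 they were 0.16, with 0.031 in RNA. ADAR efficiency was -0.060 by limma with a pseudocount of 0.1. With 1 library left out, RNA changes ran from -0.34 to 0.0043 for WWTR1, -0.024 to 0.17 for CCN1, -0.031 to 0.14 for AXL and -0.49 to 0.0034 for GAS6. Footprint changes ran from -0.038 to 0.10 for CCN2 and -0.055 to 0.20 for AJUBA, and efficiency changes from -0.078 to 0.25 for WWTR1 and -1.16 to 0.94 for ADAR. The WWTR1 efficiency percentile of 68.8 was 68.4 among genes of at least 5 TPM. The median efficiency change of all genes was 0.09 in the main fit and -0.03 by limma. The cause of these differences was not tested.

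Replicate numbers were not taken to pair the samples, since the labels do not say that same-numbered libraries belong together. Deviations of same-numbered libraries from their group means correlated at 0.416 (ADAR1 siRNA Input and Ribo-seq) and 0.170 (ADAR1 siRNA and control Ribo-seq). For the other 4 pairs of groups they correlated at -0.04 to 0.03. The main efficiency fit thus treated ADAR1 siRNA Input and Ribo-seq libraries as independent although their deviations were correlated. The deposited ratio joins same-numbered libraries. With a replicate block 1095 of 12644 genes were called in RNA, 2102 of 12000 in footprints and 448 of 12953 in efficiency. Among them were 0, 4 and 1 of the 10 genes. These were CCN1, ANKRD1, AMOTL2 and AXL in footprints (edgeR adjusted p = 0.0122, 7.03e-05, 0.00585 and 0.000553) and ANKRD1 in efficiency (edgeR adjusted p = 0.0394). Of the 10 genes LATS2 had the fewest footprints, 168 to 361 counts per library.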
